A study of Mus musculus with 20 samples.

Results

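The genes described here are 40 interferon-stimulated genes, that is, genes whose transcription is raised by type I or type II interferon, measured by RNA sequencing in whole mouse embryo hearts at E13.5. They were chosen by name from knowledge of the interferon response and by position outside the segment that is duplicated in the mice studied. Earlier results of these data were known at that choice, so counts of the list beside all genes are descriptions and no test. All 40 were found among the 48795 genes of the deposited table. Of the 40 genes, 35 were expressed highly enough to be tested in each strain, 34 in both strains and 36 in at least 1. The level required was 10 normalised counts (reads divided by the size factor of the library) in 5 or more of the 10 hearts compared. The hearts came from Dp3Tyb embryos, which carry Dp(16Mir802-Zbtb21)3TybEmcf, from Ts1Rhr embryos, which carry the shorter Dp(16Cbr1-Fam3b)1Rhr, and from wild-type (WT) littermates of each strain, with 5 hearts in each of the 4 groups. Both alleles are tandem duplications of part of mouse chromosome 16 and model Down syndrome, and a mutant heart therefore has 3 copies of the genes in its segment. Each library came from the heart of a single embryo, and the labels give neither litters nor cell fractions, so p-values measure the spread between these hearts. In whole hearts, fewer cells of a type and less RNA per cell cannot be told apart. The question addressed was whether interferon-stimulated genes differed between mutant and WT hearts of each strain, gene by gene and heart by heart.

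Type I interferons bind the receptor IFNAR1-IFNAR2, whose kinases JAK1 and TYK2 phosphorylate STAT2. STAT2 and IRF9 are subunits of the complex ISGF3, which binds the interferon-stimulated response element (ISRE) in the promoters of antiviral genes. Type II interferon acts through IFNGR1-IFNGR2, JAK1 and JAK2, and promoters of its target genes carry gamma-activated sites (GAS). Many of the target genes are also transcribed at a low level without infection, and macrophages are prominent among the cells that express them.

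Libraries held 6.60 to 19.6 M reads, and mitochondrially encoded genes took 4.85% to 19.5% of them. That share was above 10% in 7 libraries, namely WT of Dp3Tyb replicate 5, Dp3Tyb replicate 5, WT of Ts1Rhr replicates 1, 2 and 4, and Ts1Rhr replicates 1 and 2. Heart defects are recorded in the labels for Ts1Rhr replicates 1 and 2 and not for replicates 3 to 5, although no such defects are described for Ts1Rhr in the study. Cardiomyocyte markers such as Myh6 and endothelial markers such as Cdh5 were abundant in every library. The labels of mutant and WT hearts were checked with 8 expressed genes that are duplicated in both strains, which cannot tell the strains apart. All 8 had a higher mean in the mutant hearts, by a median of 0.50 on the log2 scale in Dp3Tyb and 0.50 in Ts1Rhr. Their summed level did not overlap between mutant and WT hearts of either strain.

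The letters that interferon signalling reads were looked up in the promoters of these genes. RefSeq promoter windows (GRCm38.p6, 250 bases before to 50 bases after a start) were held for 33 of the 40 genes, in 41 windows. The ISRE core was taken as GAAA repeated after a gap of 2 bases of any kind. Searched on both strands with overlapping matches allowed, it occurred in 17 of the 41 windows (41.5%) and in 3.44% of all 32851 windows. The GAS core TTCNNNGAA occurred in 9 of the 41 windows (22.0%) and in 8.30% of all windows. A match is a description of the letters, not of binding. The 200 bases before the start are shown for 4 genes whose values are described below, in the direction of transcription, with matches to the ISRE core in capitals. They lie at chr19:34640689-34640888 (plus strand) for Ifit1, chr19:34583329-34583528 (plus strand) for Ifit3, chr3:142559844-142560043 (plus strand) for Gbp3 and chr8:71537473-71537672 (minus strand) for Bst2 in GRCm38.p6. Each holds 2 matches, which lie apart in Ifit1 and Ifit3 and overlap in Gbp3 and Bst2.
Ifit1: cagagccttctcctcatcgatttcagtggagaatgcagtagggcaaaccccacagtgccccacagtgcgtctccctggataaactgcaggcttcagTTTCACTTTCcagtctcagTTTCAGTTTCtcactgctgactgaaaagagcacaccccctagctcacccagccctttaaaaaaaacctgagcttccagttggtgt
Ifit3: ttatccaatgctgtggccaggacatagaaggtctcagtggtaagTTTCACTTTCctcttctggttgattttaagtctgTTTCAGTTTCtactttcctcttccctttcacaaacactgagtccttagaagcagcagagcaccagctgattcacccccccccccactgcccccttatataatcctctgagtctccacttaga
Gbp3: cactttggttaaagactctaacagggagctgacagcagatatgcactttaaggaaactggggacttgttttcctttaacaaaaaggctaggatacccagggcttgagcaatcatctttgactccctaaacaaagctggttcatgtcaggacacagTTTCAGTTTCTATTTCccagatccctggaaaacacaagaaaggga
Bst2: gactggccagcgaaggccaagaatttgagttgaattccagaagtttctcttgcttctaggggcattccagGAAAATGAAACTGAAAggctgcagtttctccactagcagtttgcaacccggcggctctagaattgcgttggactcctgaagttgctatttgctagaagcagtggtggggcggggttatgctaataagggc

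The 40 genes spanned a wide range of levels in WT hearts. Per kilobase of exon, the mean over the 10 WT hearts was highest for Trim25 (138 normalised counts per kilobase), a ligase for ISG15 and ubiquitin, and for Eif2ak2 (130), Ifitm3 (99.3), Parp12 (65.1) and Bst2 (64.2). It was lowest for Oas3 (0.917), Ifit1 (1.19), Isg20 (1.48) and Oasl1 (1.95). Of the 40 genes, Oasl1, Oas3, Isg15 and Isg20 were below the filter in both strains, Ifit1 in Dp3Tyb only and Usp18 in Ts1Rhr only.

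In Dp3Tyb hearts most interferon-stimulated genes lay slightly above WT and none passed the test. Of the 35 genes tested, 25 had a higher mean than in WT (71.4%), against 48.9% of all 14763 genes tested. Their median log2 fold change, on the scale log2(normalised count + 1), was 0.15, or 1.11-fold, with quartiles of -0.02 and 0.28, while the median over all genes was -0.0027. At 1.2-fold or more there were 11 genes above WT and 1 below it, against 8.68% and 2.73% of all genes. With limma and Benjamini-Hochberg adjustment over all genes, 0 of the 35 genes were called at 0.05 (0.0542% of all genes were called), and 0 were called by edgeR (0.061%) or DESeq2 (0.23%). At an unadjusted p under 0.05 there were also 0 (2.8% of all genes, with 1.59% higher), and in 0 of the 35 did the 5 Dp3Tyb hearts lie apart from the 5 WT hearts (0.975% of all genes).

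In Ts1Rhr hearts most of the genes likewise lay above WT and none passed the test. Of 35 genes tested, 29 had a higher mean than in WT (82.9%), against 49.6% of all 14867 genes tested. Their median log2 fold change was 0.17, or 1.12-fold, with quartiles of 0.05 and 0.42. At 1.2-fold or more there were 15 genes above WT and 0 below it, against 7.34% and 7.09% of all genes, and at 1.5-fold or more there were 4 above WT (Irf7, Ifit1, Ifit3 and Ifi44), against 1.15%. Irf7 reached 10 normalised counts in 2 WT hearts and 5 Ts1Rhr hearts and Ifit1 in 2 and 3, so they passed the filter through more of the hearts of the higher group, and the count of 4 is a description only. By limma 0 of the 35 were called (0.0269% of all genes), and 0 by edgeR (0.0269%) or DESeq2 (0.168%). At an unadjusted p under 0.05 there were 4, namely Trim30a, Ifi44, Gbp3 and Ifit3, all higher in Ts1Rhr (5.52% of all genes had such a p, and 2.86% had it with a higher mean), and their limma adjusted p was 0.795 each. In 0 of the 35 did the 5 Ts1Rhr hearts lie apart from the 5 WT hearts (1.12% of all genes, with 0.619% higher).

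**Figure D1:**
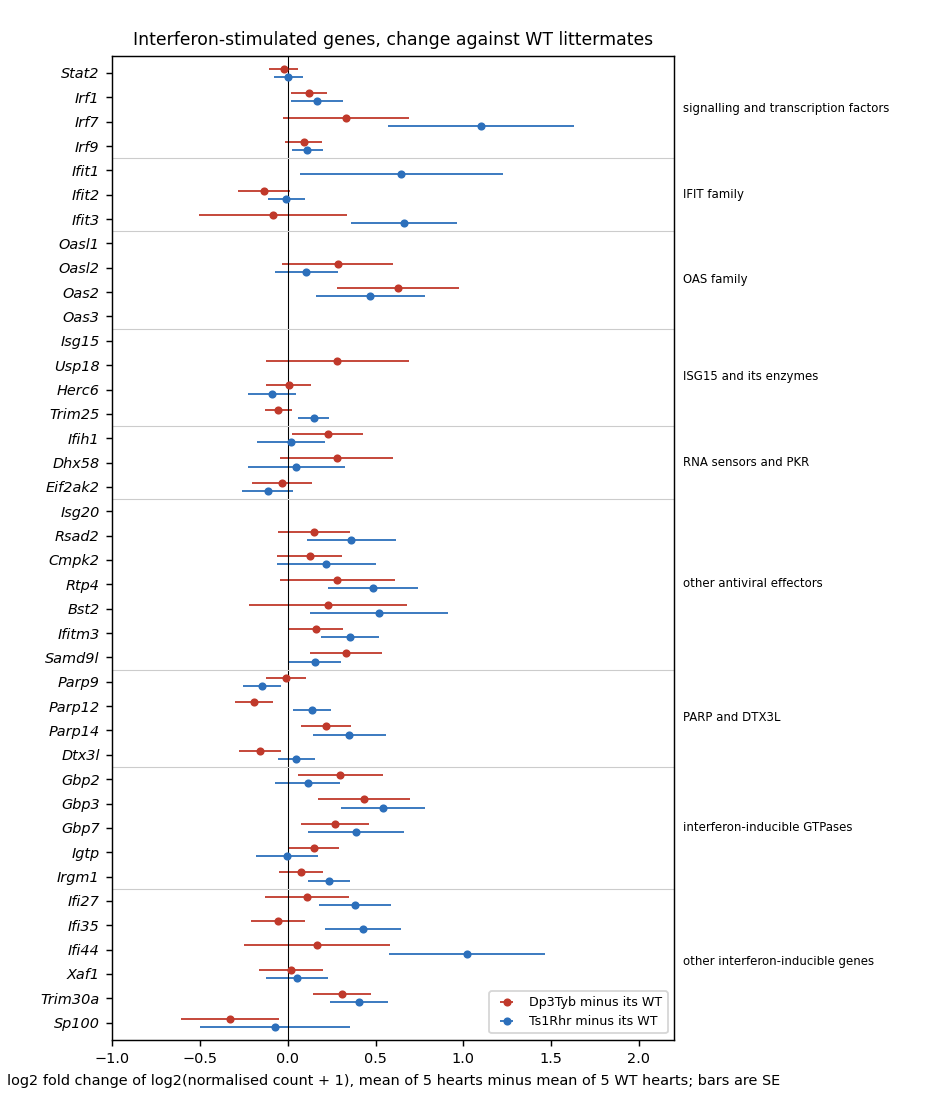
Log2 fold change of each of the 40 genes, mean of 5 mutant hearts minus mean of 5 WT hearts on log2(normalised count + 1), with bars of 1 SE, for Dp3Tyb (red) and Ts1Rhr (blue). Genes are grouped by role and genes without a point were too low to test. Most points lie to the right of 0 in both strains, with medians of 0.15 and 0.17.

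Of the 34 genes tested in both strains, 22 were above WT in both (64.7%), against 31% of all 14605 genes tested in both, and the strains have separate WT hearts. Herc6 and Igtp were above WT in Dp3Tyb alone, Stat2, Ifit3, Trim25, Parp12, Dtx3l and Ifi35 in Ts1Rhr alone, and Ifit2, Eif2ak2, Parp9 and Sp100 were below WT in both. The difference between the strains was tested by an interaction contrast over all 20 hearts, in which 37 of the 40 genes could be tested. The change was smaller in Dp3Tyb than in Ts1Rhr for 27 of the 37, and the median difference was -0.13, while 50.4% of all genes had a difference above 0. By limma 0 of the 37 were called (0.013% of all genes), as by edgeR (0.013%) and DESeq2 (0.0195%). Parp12, which encodes an ADP-ribosyltransferase that binds RNA, was the only gene of the 37 at an unadjusted p under 0.05 (1.52% of all genes), with a difference of -0.33 ± 0.15 (SE). The data therefore do not show that the strains differed in any of these genes.

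Of the 4 listed signalling components and transcription factors, 3 were above WT in Dp3Tyb and 4 in Ts1Rhr, and they ranged from Stat2, next to WT, to Irf7. Stat2, a subunit of ISGF3, lay between 277 and 330 normalised counts in WT of Dp3Tyb and between 271 and 320 in Dp3Tyb, and its log2 fold change was -0.02 ± 0.08 (SE) in Dp3Tyb and 0.00 ± 0.08 in Ts1Rhr. Irf9, the DNA-binding subunit of ISGF3, differed by 0.09 ± 0.11 and 0.11 ± 0.09. Irf1, a factor induced by both interferon types, differed by 0.12 ± 0.10 and 0.17 ± 0.15.

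Irf7, the factor that amplifies type I interferon production, had the largest log2 fold change of the list in Ts1Rhr. Its normalised counts were 23.8, 9.76, 5.37, 1.91 and 20.2 in WT of Ts1Rhr replicates 1 to 5 and 11.98, 26.4, 30.2, 23.2 and 16.8 in Ts1Rhr. The groups overlapped, and WT replicates 3 and 4 were the lowest of the 10 hearts. The log2 fold change was 1.101 ± 0.530 (limma adjusted p = 0.795), and it was 0.65 without WT of Ts1Rhr replicate 4. In the other strain Irf7 measured 31.3, 16.0, 13.1, 11.2 and 8.81 in WT of Dp3Tyb and 13.6, 24.3, 33.1, 14.5 and 14.0 in Dp3Tyb. The highest WT heart lay above 4 of the 5 Dp3Tyb hearts, and the log2 fold change of 0.33 ± 0.36 became 0.59 without that WT heart, 0.16 without WT replicate 5 and 0.13 without Dp3Tyb replicate 3.

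IFIT proteins bind viral RNA and block its translation. Ifit3 measured 16.2, 14.1, 7.17, 13.4 and 22.6 in WT of Ts1Rhr and 18.0, 37.1, 17.8, 20.6 and 23.4 in Ts1Rhr. All 5 Ts1Rhr hearts were above the WT mean, and 3 of them lay below the highest WT heart. The log2 fold change was 0.66 ± 0.30 (limma unadjusted p = 0.049, adjusted p = 0.795). In WT of Dp3Tyb the same gene measured 15.1, 19.8, 10.05, 11.96 and 23.5, and in Dp3Tyb 5.96, 13.3, 25.4, 9.41 and 30.8. There the mutant hearts held both the lowest and the highest values, and the log2 fold change was -0.09 ± 0.42. Ifit1 was low, at 10.8, 1.08, 4.48, 9.57 and 14.6 in WT of Ts1Rhr and 3.59, 22.5, 16.9, 8.59 and 10.2 in Ts1Rhr, with a log2 fold change of 0.65 ± 0.58 that became 0.19 without WT of Ts1Rhr replicate 2 and 0.98 without Ts1Rhr replicate 1. Ifit2, the most abundant of the family per length, differed by -0.14 ± 0.15 in Dp3Tyb, which became -0.016 without WT of Dp3Tyb replicate 5, and by -0.01 ± 0.10 in Ts1Rhr. Reads of the Ifit, Oas and Gbp families can be shared between near-identical copies, so the level of a single member is uncertain.

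OAS enzymes make a second messenger that activates RNase L. Oas2 had the largest log2 fold change of the list in Dp3Tyb, with 17.4, 12.9, 6.96, 8.23 and 20.6 in WT and 11.1, 29.0, 23.7, 15.2 and 23.8 in Dp3Tyb. Of the mutant hearts 3 were above every WT heart and replicate 1 was among the low WT hearts. The log2 fold change was 0.63 ± 0.35 (limma adjusted p = 1.0). In the Ts1Rhr strain the values were 15.1, 8.68, 8.96, 11.5 and 14.6 in WT and 8.38, 27.3, 19.5, 18.9 and 13.2 in Ts1Rhr. Again 3 mutant hearts were above every WT heart and replicate 1 was below all of them, with a log2 fold change of 0.47 ± 0.31 that became 0.29 without Ts1Rhr replicate 2. Oasl2 differed by 0.28 ± 0.31 in Dp3Tyb, with a range of 0.10 to 0.57 with 1 heart left out (0.57 without WT of Dp3Tyb replicate 5), and by 0.11 ± 0.18 in Ts1Rhr, with a range of 0.0093 to 0.22. Oasl1 and Oas3 were too low to test, at no more than 12.9 normalised counts in any heart.

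Isg15, the ubiquitin-like protein conjugated to targets during the response, was also too low to test in either strain, and it is described after its values were seen. It measured 30.1, 12.9, 7.73, 9.72 and 2.94 in WT of Dp3Tyb and 6.81, 18.0, 20.3, 7.96 and 1.40 in Dp3Tyb. It measured 7.56, 5.42, 5.37, 1.91 and 6.47 in WT of Ts1Rhr and 13.2, 6.83, 37.3, 8.59 and 8.77 in Ts1Rhr. The spread within groups was large, and the highest value of each strain came from 1 heart that stood above the rest of its group. Usp18, the protease that removes ISG15, differed by 0.28 ± 0.41 in Dp3Tyb, with a range of 0.020 to 0.54 with 1 heart left out (0.54 without WT of Dp3Tyb replicate 1), and was too low to test in Ts1Rhr. The ligases Herc6 and Trim25 differed by 0.00 ± 0.13 and -0.05 ± 0.08 in Dp3Tyb and by -0.09 ± 0.14 and 0.15 ± 0.09 in Ts1Rhr.

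Among the RNA sensors, Ifih1 (MDA5) differed by 0.23 ± 0.20 in Dp3Tyb and 0.02 ± 0.19 in Ts1Rhr, and Dhx58 (LGP2) by 0.28 ± 0.32 and 0.05 ± 0.28. Eif2ak2, which encodes PKR, the kinase that stops translation on double-stranded RNA, was below WT in both strains, by -0.03 ± 0.17 and -0.12 ± 0.14. The antiviral effectors Rsad2 (viperin), Cmpk2, Rtp4, Bst2 (tetherin), Ifitm3 and Samd9l were all above WT in both strains. Their log2 fold changes spanned 0.12 to 0.33 in Dp3Tyb hearts, and 0.15 to 0.52 in Ts1Rhr hearts. Single hearts set the sign for some of them: Rsad2 in Dp3Tyb was -0.018 without Dp3Tyb replicate 1, and Cmpk2 in Ts1Rhr was -0.028 without WT of Ts1Rhr replicate 4. Samd9l, a restriction factor of pox viruses, measured 168, 100, 112, 119 and 220 in WT of Dp3Tyb and 140, 178, 192, 165 and 201 in Dp3Tyb. The Dp3Tyb hearts lay within the WT range, and 4 of the 5 exceeded the WT mean (log2 fold change 0.33 ± 0.21, limma adjusted p = 1.0). It was 0.22 without WT of Dp3Tyb replicate 2 and 0.50 without WT of Dp3Tyb replicate 5. In WT of Ts1Rhr the gene measured 139, 110, 118, 134 and 167 and in Ts1Rhr 125, 191, 139, 123 and 168, with overlapping groups and a log2 fold change of 0.15 ± 0.15 that ranged from 0.058 without Ts1Rhr replicate 2 to 0.24 without WT replicate 5. Rtp4, described after its values were seen, was above every WT heart in 4 of 5 Ts1Rhr hearts, at 44.3, 39.1, 21.5, 32.5 and 35.6 in WT and 26.3, 54.7, 66.6, 51.5 and 49.0 in Ts1Rhr. Ts1Rhr replicate 1 was the exception, below 4 of the WT hearts, and the log2 fold change of 0.49 ± 0.26 became 0.69 without it. Without WT of Ts1Rhr replicate 3 it was 0.33. In Dp3Tyb the log2 fold change of Rtp4 was 0.28 ± 0.33, from 0.078 without WT replicate 3 to 0.53 without WT replicate 1.

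Parp9 and Dtx3l, which form an ADP-ribosylating ubiquitin ligase, differed by -0.01 ± 0.11 and -0.16 ± 0.12 in Dp3Tyb and by -0.15 ± 0.11 and 0.05 ± 0.11 in Ts1Rhr. Parp14, another ADP-ribosyltransferase of the response, was above WT by 0.22 ± 0.14 and 0.35 ± 0.21. Of the interferon-inducible GTPases, which attack the vacuoles of intracellular pathogens, 5 of 5 were above WT in Dp3Tyb (median 0.27) and 4 of 5 in Ts1Rhr (median 0.24). Gbp3 measured 56.8, 33.5, 21.6, 30.7 and 38.2 in WT of Dp3Tyb and 35.8, 64.9, 61.0, 38.4 and 42.0 in Dp3Tyb. It measured 49.7, 22.8, 27.8, 30.6 and 27.5 in WT of Ts1Rhr and 28.7, 52.7, 58.6, 48.1 and 42.4 in Ts1Rhr. In each strain 2 mutant hearts exceeded every WT heart, and WT replicate 1 stood above the other WT hearts. The log2 fold change was 0.44 ± 0.26 in Dp3Tyb (limma adjusted p = 1.0) and 0.54 ± 0.24 in Ts1Rhr (limma unadjusted p = 0.044, adjusted p = 0.795), and without WT replicate 1 it was 0.61 and 0.71. The lowest values with 1 heart left out were 0.27 in Dp3Tyb, without WT replicate 3, and 0.44 in Ts1Rhr, without WT replicate 2.

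Ifi44, an interferon-inducible antiviral protein, measured 24.8, 14.1, 7.17, 15.3 and 6.47 in WT of Ts1Rhr and 9.58, 42.9, 44.4, 24.9 and 23.4 in Ts1Rhr. Here 3 mutant hearts exceeded every WT heart and replicate 1 was among the low WT hearts, with a log2 fold change of 1.02 ± 0.44 (limma unadjusted p = 0.040, adjusted p = 0.795). In the other strain the gene measured 27.8, 16.0, 13.1, 18.7 and 67.5 in WT and 25.5, 36.8, 38.1, 15.2 and 25.2 in Dp3Tyb. The highest value was a WT heart, replicate 5, and the log2 fold change of 0.17 ± 0.42 became 0.53 without it and -0.036 without WT replicate 3. Trim30a, a regulator of inflammatory signalling that was chosen after its values were seen, measured 41.7, 43.4, 31.7, 29.2 and 47.0 in WT of Dp3Tyb and 42.6, 49.3, 54.2, 46.3 and 44.8 in Dp3Tyb. It measured 42.1, 43.4, 40.3, 36.4 and 29.9 in WT of Ts1Rhr and 43.1, 61.5, 57.7, 41.2 and 53.4 in Ts1Rhr. All 5 mutant hearts of each strain were above their WT mean, and the groups overlapped (log2 fold change 0.31 ± 0.16 and 0.41 ± 0.17, limma unadjusted p = 0.084 and 0.032, adjusted p = 1.0 and 0.795). Sp100, a nuclear body protein, had the largest negative value in Dp3Tyb. It measured 22.0, 22.1, 29.4, 17.2 and 35.2 in WT and 11.9, 31.3, 15.3, 23.2 and 19.6 in Dp3Tyb, with a log2 fold change of -0.33 ± 0.28 (-0.17 without Dp3Tyb replicate 1 and -0.50 without Dp3Tyb replicate 2). In Ts1Rhr it was -0.07 ± 0.43, and mouse Sp100 has near-identical copies that can share its reads.

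**Figure D2:**
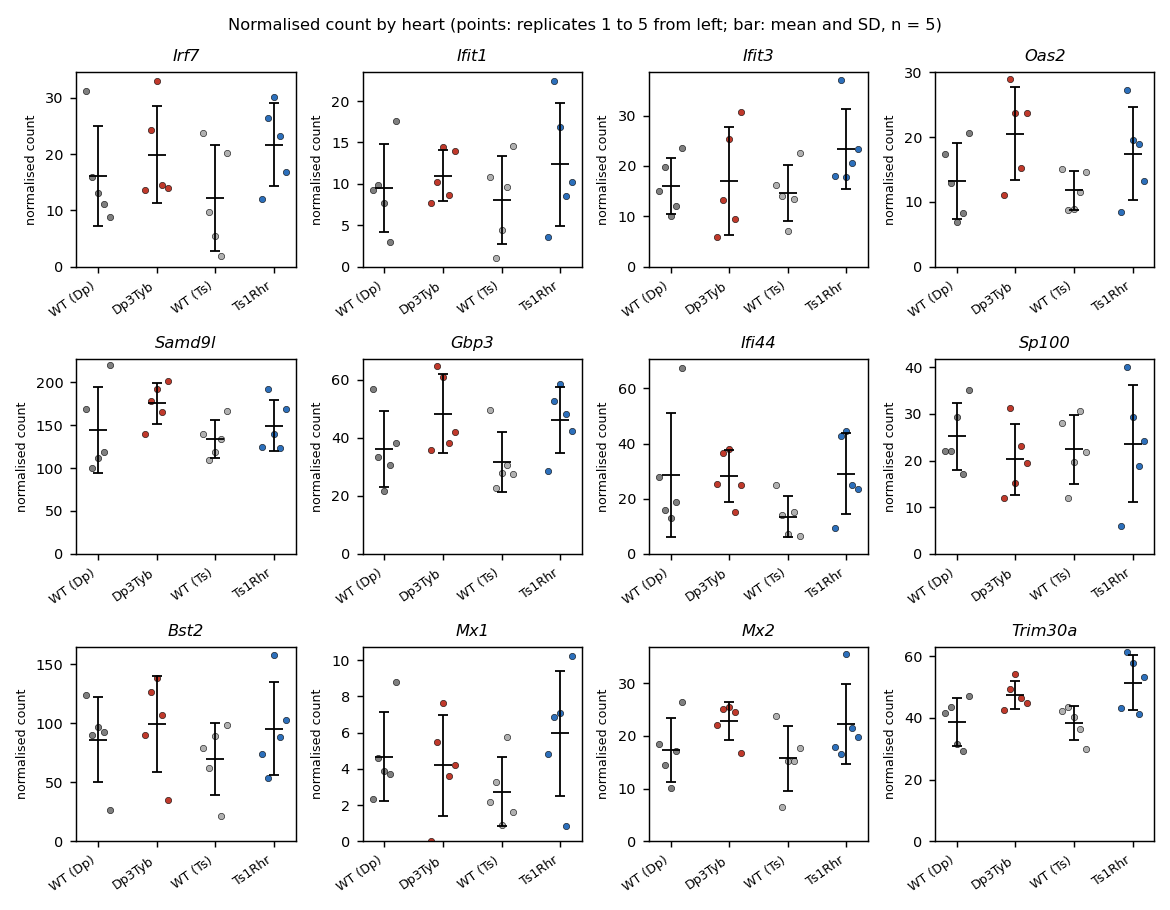
Normalised count (reads divided by the library's size factor) of 12 genes in every heart, by group, with points for replicates 1 to 5 from left to right and the group mean and SD (n = 5). Mutant and WT points overlap in every panel, and single hearts such as WT of Dp3Tyb replicate 5 for Ifi44 (67.5) and Bst2 (26.4) stand apart.

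How far single hearts set the group means was examined by leaving them out. For each gene the 10 differences with 1 heart left out were computed, and in Dp3Tyb 24 of 35 genes kept their sign in all 10 (44.1% of all genes did), 19 of them above WT (22.2% of all genes) and 5 below. In Ts1Rhr 26 of 35 kept it (65.3% of all genes), 23 above WT (31.9% of all genes) and 3 below. The genes whose sign turned were Stat2, Ifit3, Herc6, Eif2ak2, Rsad2, Bst2, Parp9, Ifi27, Ifi35, Ifi44 and Xaf1 in Dp3Tyb, and Stat2, Ifit2, Ifih1, Dhx58, Cmpk2, Gbp2, Igtp, Xaf1 and Sp100 in Ts1Rhr. The value moved by over 1.5 times without some single heart for 32 of 35 genes in Dp3Tyb, the exceptions being Oas2, Parp12 and Trim30a, and for 26 of 35 in Ts1Rhr. Above WT in both strains whichever heart was left out were 13 of the 34 genes tested in both (10.2% of all genes): Gbp3, Gbp7, Ifitm3, Irf1, Irf7, Irf9, Irgm1, Oas2, Oasl2, Parp14, Rtp4, Samd9l and Trim30a. The heart whose removal moved a gene's difference most was WT of Dp3Tyb replicate 5 for 12 of 35 genes and WT of Dp3Tyb replicate 1 for 7. In the other strain it was Ts1Rhr replicate 1 for 9 of 35, WT of Ts1Rhr replicate 5 for 9 and WT of Ts1Rhr replicate 3 for 6.

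Within each group the same heart was often at the extreme for many genes. WT of Dp3Tyb replicate 5 held the highest value of its group for 19 of the 35 genes, against 39.7% of all genes, and WT of Dp3Tyb replicate 1 for 12, against 18.4%. Dp3Tyb replicate 3 held the highest value for 15 (14.6% of all genes), and Dp3Tyb replicate 1 the lowest for 22 (12.6%). Among the Ts1Rhr littermates, WT replicate 5 held the highest for 18 (29.2%), Ts1Rhr replicates 2 and 3 for 14 each (25.9% and 28.9%), and Ts1Rhr replicate 1 the lowest for 22 (15.9%). The median over the 35 genes of a heart's log2 value minus the WT mean was -0.12, 0.23, 0.28, 0.09 and 0.11 in Dp3Tyb replicates 1 to 5 and 0.18, 0.02, -0.16, -0.16 and 0.26 in their WT littermates. It was -0.07, 0.28, 0.35, 0.11 and 0.28 in Ts1Rhr replicates 1 to 5 and 0.16, 0.02, -0.15, -0.04 and 0.30 in their WT littermates. In each strain replicate 1 was the mutant heart below the WT mean, 4 mutant hearts were above it, and the most positive WT heart reached the level of the mutant hearts.

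**Figure D3:**
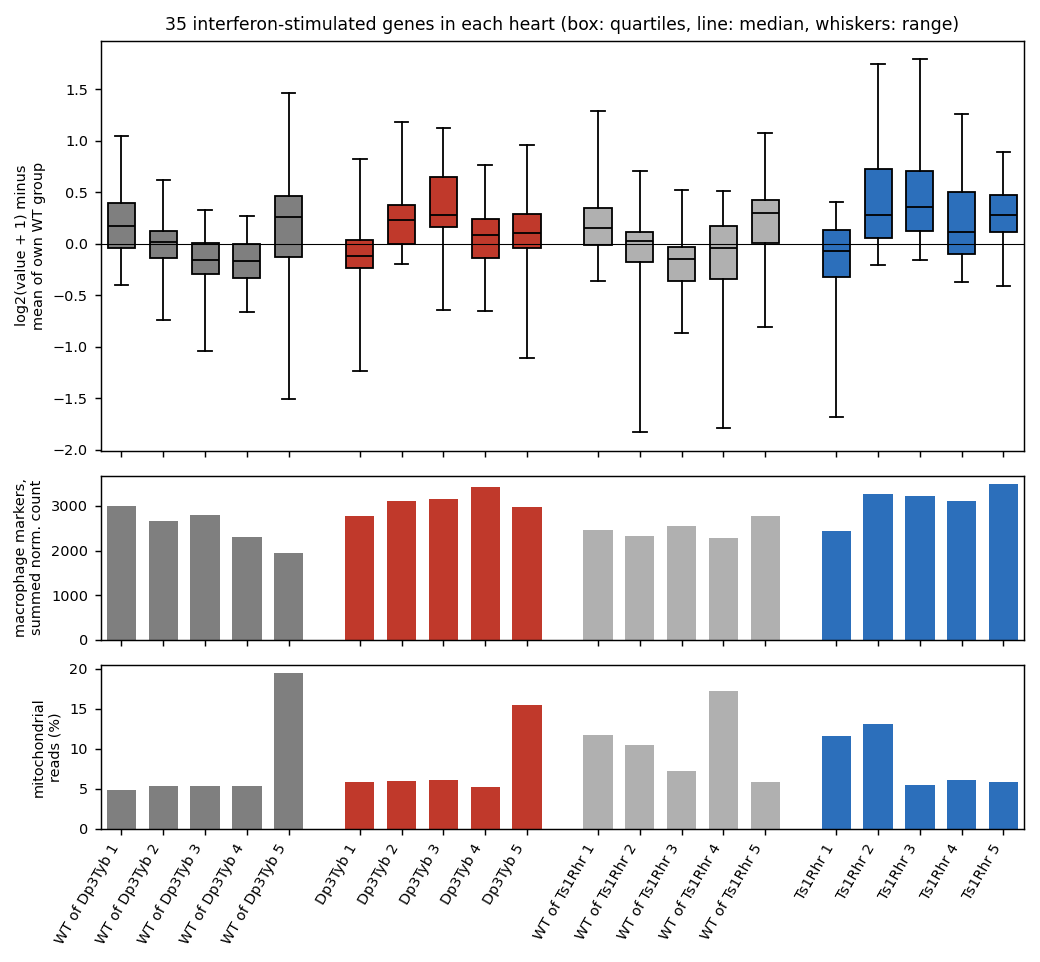
Top, log2(normalised count + 1) of the 35 tested genes minus the mean of the heart's own WT group, as box (quartiles), line (median) and whiskers (range) for each of 20 hearts. Middle and bottom, summed normalised count of the macrophage markers and the mitochondrial share of reads (%) in the same hearts. Dp3Tyb replicate 1 and Ts1Rhr replicate 1 have medians below 0 (-0.12 and -0.07), and WT of Dp3Tyb replicate 5 and WT of Ts1Rhr replicate 5 have medians of 0.26 and 0.30.

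With 1 heart left out, between 22 and 28 genes were above WT in Dp3Tyb and the median log2 fold change lay between 0.079 (without Dp3Tyb replicate 3) and 0.19 (without WT of Dp3Tyb replicate 1). In Ts1Rhr between 25 and 30 genes were above WT and the median lay between 0.13 (without Ts1Rhr replicate 5) and 0.24 (without WT of Ts1Rhr replicate 5). The number of genes at an unadjusted p under 0.05 ranged from 0 to 5 in Dp3Tyb, with 5 of 35 without WT of Dp3Tyb replicate 5 (4.43% of all genes in that fit). It ranged from 0 to 12 in Ts1Rhr, with 12 of 35 without Ts1Rhr replicate 1 (5.85% of all genes) and 8 of 34 without WT of Ts1Rhr replicate 5 (11.2% of all genes). It was 0 of 34 without Ts1Rhr replicate 2 (9.32% of all genes) and 0 of 34 without Ts1Rhr replicate 5 (4.32%). No gene of the list was called by limma in any of these fits.

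**Figure D4:**
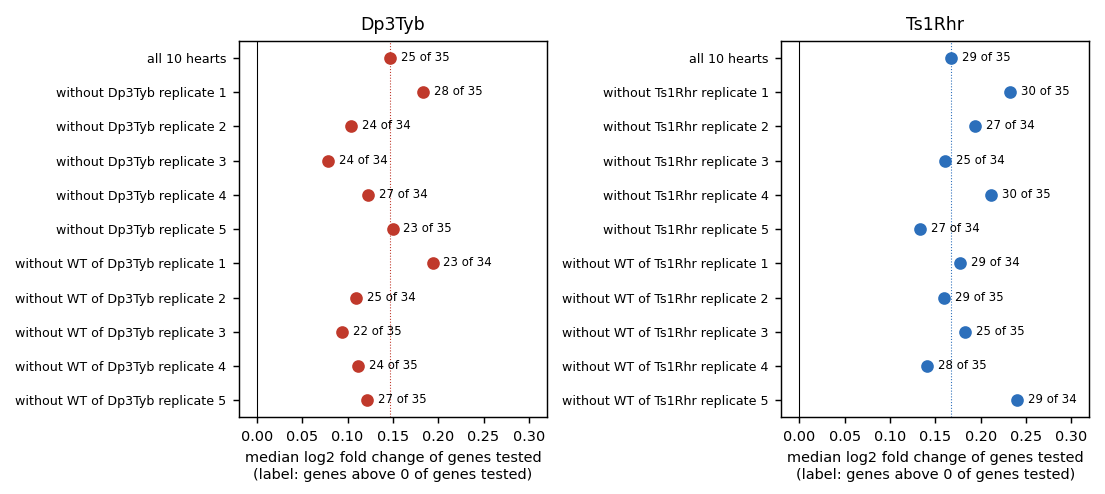
Median log2 fold change of the tested genes with all 10 hearts of a strain and with each heart left out in turn, labelled with the number of genes above WT. Every median is above 0, with a range of 0.079 to 0.19 for Dp3Tyb and 0.13 to 0.24 for Ts1Rhr.

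Within groups, many of the genes varied together from heart to heart. Over the 37 genes and 20 hearts, deviations from the group mean had a median pairwise Pearson correlation of 0.30, against -0.0015 over all pairs of genes tested, and in the 13 hearts with a mitochondrial share of at most 10% it was 0.45, against 0.0010. These correlations are descriptions, since all genes of a heart share a library and its depth. The closest pairs were Ifih1 with Samd9l (0.86), Isg15 with Bst2 (0.86), Ifih1 with Ifitm3 (0.86) and Oasl2 with Ifi44 (0.85). Parp14 and Oas2 had the highest median correlation with the other genes (0.49 and 0.48), and Herc6 (-0.09) and Bst2 (-0.02) the lowest.

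Some genes instead followed the mitochondrial share of the library. Eif2ak2 had a within-group correlation of 0.95 with the log2 of that share over 20 hearts, Ifi27 of -0.92 and Bst2 of -0.91, while Gbp3 (-0.01) and Rtp4 (0.00) had next to none. Eif2ak2 and Bst2 are described after their values were seen. Eif2ak2 measured 603, 627, 625, 589 and 1033 in WT of Dp3Tyb and 605, 651, 600, 597 and 915 in Dp3Tyb, and replicate 5, the library with the high share, was the highest of each group. In WT of Ts1Rhr it measured 788, 782, 647, 854 and 522 and in Ts1Rhr 673, 850, 634, 548 and 599. There too the libraries with shares above 10% were the highest. Bst2 measured 124, 89.8, 96.6, 92.7 and 26.4 in WT of Dp3Tyb and 90.3, 127, 138, 107 and 34.97 in Dp3Tyb, with the lowest value in the same 2 libraries. It measured 78.8, 61.8, 89.6, 21.1 and 98.7 in WT of Ts1Rhr and 74.3, 53.7, 158, 88.5 and 102 in Ts1Rhr. Its log2 fold change was 0.23 ± 0.45 in Dp3Tyb, -0.15 without WT of Dp3Tyb replicate 5, and 0.52 ± 0.39 in Ts1Rhr. In Ts1Rhr it was 0.26 without the libraries above 10%, 0.14 without WT of Ts1Rhr replicate 4 alone and 0.32 without Ts1Rhr replicate 3 alone. Without the libraries above 10%, 28 of 35 genes were above WT in Dp3Tyb (median 0.16), against 49.6% of all genes. In Ts1Rhr 22 of 30 were (median 0.12), against 50.3%. The Dp3Tyb fit held replicates 1 to 4 of each group. The Ts1Rhr fit held only WT replicates 3 and 5 and Ts1Rhr replicates 3 to 5, so its filter required 10 normalised counts in every heart. It also left out the Ts1Rhr hearts whose labels record heart defects.

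**Figure D5:**
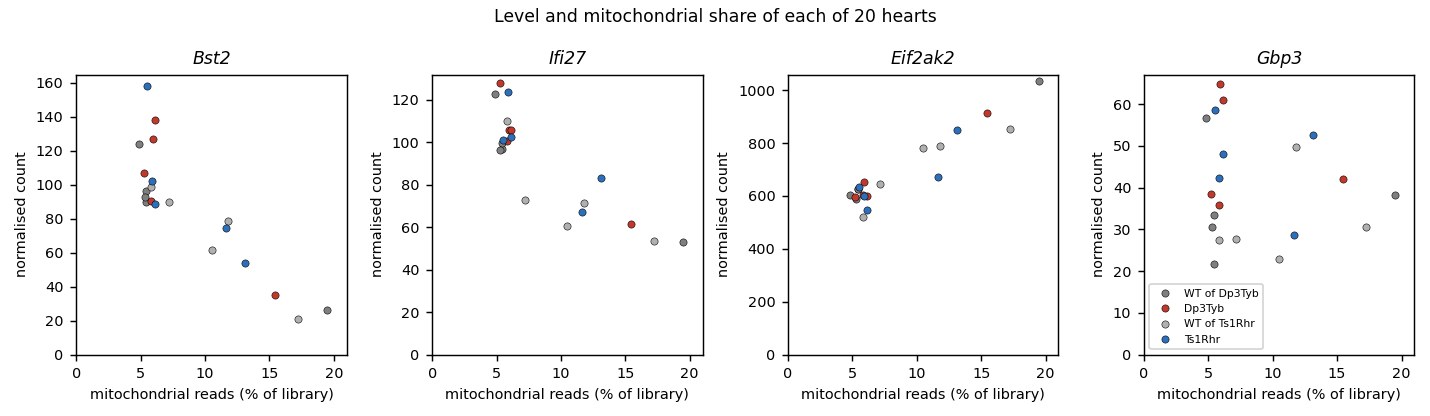
Normalised count of Bst2, Ifi27, Eif2ak2 and Gbp3 against the mitochondrial share of reads (%) in each of 20 hearts, coloured by group. Bst2 and Ifi27 are low and Eif2ak2 is high in the libraries above 10%, up to 1033 normalised counts of Eif2ak2 at a share of 19.5%, whereas Gbp3 shows no such order.

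Fold changes were also set side by side by promoter class. In Dp3Tyb the median log2 fold change was 0.16 over the 13 tested genes with an ISRE match (10 above WT) and 0.02 over the 15 with a promoter entry and no match (9 above WT). In Ts1Rhr it was 0.36 over 14 genes with a match (12 above WT) and 0.14 over 15 without (12 above WT). The genes with no promoter entry had medians of 0.28 over 7 genes in Dp3Tyb and 0.37 over 6 in Ts1Rhr, no lower than those with a match. These medians were not tested, and the ranges overlapped: Irf7, with the largest change in Ts1Rhr, had no match in its window.

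Upstream of these genes, interferon transcripts were almost absent. Of 21 interferon ligand genes, 17 had 0 reads in all 20 libraries and the other 4 had at most 2 reads in a library, 11 reads in all. A count of 0 allows up to 3 reads, or 0.153 to 0.454 reads per M reads, depending on the depth of the library, and covers counting error only. The receptor genes Ifnar1, Ifnar2, Ifngr2 and Il10rb lie on chromosome 16 outside both duplicated segments. Ifnar1 differed by 0.04 ± 0.06 in Dp3Tyb and 0.05 ± 0.06 in Ts1Rhr, Ifnar2 by -0.03 ± 0.11 and -0.02 ± 0.06, and Ifngr2 by -0.06 ± 0.07 and 0.01 ± 0.07. Of the 6 receptor genes, 2 were above WT in Dp3Tyb and 3 in Ts1Rhr, and 0 were called. The largest value was that of Ifnlr1, the receptor for type III interferon, at 0.36 ± 0.25 in Dp3Tyb and 0.07 ± 0.23 in Ts1Rhr, and its hearts overlapped in both strains.

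Of 9 other JAK-STAT genes tested, 4 were above WT in Dp3Tyb and 6 in Ts1Rhr, and of the genes for nucleic acid sensing 9 of 14 and 12 of 15, with 0 called in either list (48.9% and 49.6% of all genes were above WT). Ptpn6, the phosphatase SHP-1 of blood cells, was the only gene of these lists at an unadjusted p under 0.05 in either strain (2.8% of all genes in Dp3Tyb and 5.52% in Ts1Rhr), and a single such gene is near those shares. It measured 55.6, 51.0, 61.8, 52.3 and 61.7 in WT of Dp3Tyb and 59.6, 67.3, 65.3, 86.1 and 75.5 in Dp3Tyb, and 63.7, 40.1, 47.5, 42.1 and 62.3 in WT of Ts1Rhr and 76.6, 93.7, 66.6, 61.0 and 62.9 in Ts1Rhr. Each strain had 1 or 2 mutant hearts within the WT range (log2 fold change 0.31 ± 0.13 and 0.50 ± 0.18, limma unadjusted p = 0.036 and 0.016, adjusted p = 1.0 and 0.795).

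The antiviral GTPase genes Mx1 and Mx2 lie in the duplicated region, Mx1 in both segments and Mx2 in that of Dp3Tyb only. Mx1 was too low to test, at 2.32, 4.57, 3.86, 3.74 and 8.81 in WT of Dp3Tyb, 0, 5.48, 7.63, 3.62 and 4.20 in Dp3Tyb, 2.16, 3.25, 0.896, 5.74 and 1.62 in WT of Ts1Rhr and 4.79, 6.83, 7.10, 0.859 and 10.2 in Ts1Rhr. The groups overlapped in both strains. Mx2 measured 18.5, 14.5, 10.05, 17.2 and 26.4 in WT of Dp3Tyb and 22.1, 25.04, 25.4, 24.6 and 16.8 in Dp3Tyb. It measured 23.8, 6.51, 15.2, 15.3 and 17.8 in WT of Ts1Rhr and 18.0, 16.6, 35.5, 21.5 and 19.7 in Ts1Rhr. Mutant and WT hearts overlapped, and the log2 fold change was 0.42 ± 0.25 in Dp3Tyb, where it has 3 copies, and 0.52 ± 0.32 in Ts1Rhr, where it has 2 (limma adjusted p = 1.0 and 0.795). Without WT of Dp3Tyb replicate 3 the value in Dp3Tyb was 0.26, and without WT of Ts1Rhr replicate 2 the value in Ts1Rhr was also 0.26. Without the libraries above 10% mitochondrial reads it was 0.69 in Dp3Tyb.

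A further list of 44 interferon-stimulated genes gave 15 of 27 tested genes above WT in Dp3Tyb (median 0.05) and 25 of 30 in Ts1Rhr (median 0.13), against 48.9% and 49.6% of all genes, with 0 called in either (0.0542% and 0.0269% of all genes). Lgals3bp, a secreted glycoprotein, was the only gene of this list whose Ts1Rhr hearts did not overlap WT (1 of 30, against 1.12% of all genes in either direction and 0.619% higher), at 73.4, 69.4, 73.5, 91.9 and 82.5 in WT and 93.4, 111, 142, 105 and 93.6 in Ts1Rhr. The gap between the groups was narrow, and the log2 fold change was 0.47 ± 0.14 (limma adjusted p = 0.795). In Dp3Tyb it was 0.30 ± 0.17 with overlapping groups.

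Macrophage markers lay above WT as well. Of 18 markers, 16 could be tested, and 16 of 16 were above WT in Dp3Tyb (median log2 fold change 0.28) and 13 of 16 in Ts1Rhr (median 0.27), with 0 called. At an unadjusted p under 0.05 there were 4 of 16 in Dp3Tyb (1.59% of all genes, higher) and 6 of 16 in Ts1Rhr (2.86%), all above WT, where the interferon-stimulated genes had 0 and 4 of 35. Lyz2, the lysozyme of macrophages, was the 1 marker whose Ts1Rhr hearts did not overlap WT (0.619% of all genes, higher), at 316 to 376.0 in WT and 376.4 to 666 in Ts1Rhr. The summed level of the 18 markers was 1941 to 3001 normalised counts in WT of Dp3Tyb and 2771 to 3433 in Dp3Tyb, and 2289 to 2769 in WT of Ts1Rhr and 2438 to 3502 in Ts1Rhr. Of these markers, Cd14 was at 0 in 1 library and the others were detected in all 20. Dp3Tyb replicate 1 (2771) and Ts1Rhr replicate 1 (2438) had the lowest sum of their groups. Each also held the lowest value of its group for 22 of the 35 interferon-stimulated genes (12.6% and 15.9% of all genes). WT of Dp3Tyb replicate 5 had the lowest sum of all 20 hearts and the highest value of its group for 19 of the 35 (39.7% of all genes). That library held 6.60 M reads with a mitochondrial share of 19.5%, and no relation between these values was tested. The 14 markers of other leukocytes were low, and their sum had a higher mean in mutant hearts, at 36.0 ± 21.9 (SD, n = 5) normalised counts in WT of Dp3Tyb and 66.4 ± 23.7 in Dp3Tyb, and 36.1 ± 23.3 in WT of Ts1Rhr and 63.1 ± 20.8 in Ts1Rhr, with overlapping groups. Of those tested, 3 of 3 in Dp3Tyb and 2 of 2 in Ts1Rhr were above WT, with 0 called and 1 and 2 of them at an unadjusted p under 0.05. S100a8, a protein abundant in neutrophils, differed by 1.07 ± 0.55 and 1.36 ± 0.56 and Ccr2, a monocyte chemokine receptor, by 0.97 ± 0.36 and 0.85 ± 0.38. S100a9 differed by 1.58 ± 0.81 in Dp3Tyb and was too low to test in Ts1Rhr. For Ccr2 all Ts1Rhr hearts were at 12.7 or more, and for S100a9 all Dp3Tyb hearts were at 10.2 or more. S100a8 had means of 7.66 in WT of Dp3Tyb, 16.5 in Dp3Tyb, 6.98 in WT of Ts1Rhr and 15.5 in Ts1Rhr. The filter thus favoured markers that were high in mutant hearts, so these counts are descriptions only. Among untested markers the means lay both ways, with Cd79a lower and Siglech higher in the mutant hearts of each strain. Ncr1 of NK cells and Ly6g of neutrophils were at 0 in all 20 libraries. Erythroid markers were above WT for 8 of 9 genes in Dp3Tyb (median log2 fold change 0.13) and 9 of 9 in Ts1Rhr (0.32), and endothelial markers for 7 of 9 (0.07) and 8 of 9 (0.14). Cardiomyocyte markers were above WT for 3 of 10 in Dp3Tyb (-0.07) and 6 of 10 in Ts1Rhr (0.06). Lung and foregut markers were above WT for 9 of 9 genes tested in Dp3Tyb (1.86) and for 0 of 9 in Ts1Rhr (-1.76), and 0 genes of these lists were called. Several lung and foregut markers were at 0 in some hearts and had large SEs, such as Nkx2-1, at 0 in 4 libraries (2.03 ± 1.19 and -2.30 ± 0.82). Their sum was 591 ± 295 (SD, n = 5) in WT of Dp3Tyb and 750 ± 330 in Dp3Tyb. It was 839 ± 197 in WT of Ts1Rhr and 623 ± 227 in Ts1Rhr, and the groups overlapped in both strains. The part of these cells in the small differences of the interferon-stimulated genes was not tested.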

How the data were processed

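RNA was extracted from whole snap-frozen hearts and sequenced as poly(A)-selected KAPA mRNA HyperPrep libraries on an Illumina HiSeq. The submitters' processing notes name Trimmomatic 0.36, STAR 2.5.2a, RSEM 1.2.31, DESeq2 and GRCm38; the annotation and the use of strand are not given in the sources used here. The authors deposited 1 table of normalised values, a signal of reads per gene divided by a size factor per library. All values (100%) were whole multiples of a step (tolerance 1e-06), so whole reads were recovered. They summed to 6.60 to 19.6 M per library, and low genes are the least precise.

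Replicates were numbered in sample order, since the labels give no number or litter. Symbols came from GENCODE vM39 (44565 of 48795 identifiers, 91.3%), promoters from RefSeq on GRCm38.p6. The genes and lists were chosen with earlier results of these data known. The main test was limma (3.58.1, R 4.3.3) on log2(value + 1) over the 10 hearts of a strain, trended and robust, 2-sided, with Benjamini-Hochberg adjustment at 0.05, for genes at 10 or more in 5 or more libraries, and it was tested on simulated data. Fold changes of low genes on this scale differed from those of the count tests in either direction. Irf7 in Ts1Rhr was 1.101 by limma, 0.79 by DESeq2 and 0.75 by edgeR. Oas2 in Dp3Tyb was 0.63 by limma, 0.74 by DESeq2 and 0.75 by edgeR. The test of the study, DESeq2 (1.42.0), and edgeR (4.0.16) were run on recovered reads. Given heart by heart were genes called or not overlapping, the 5 largest log2 fold changes in each strain, and Mx1 and Mx2; 1 further gene of that rule is not reported here. Bst2, Eif2ak2, Isg15, Trim30a, Rtp4, Ptpn6 and Lgals3bp were chosen after their values were seen. Other pseudocount, filter and scaling, and left-out libraries, were tried as alternatives.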

Additional observations from a re-analysis of the deposited data

Results flagged for a closer look

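In each group of 5 hearts the highest and the lowest value of every listed gene was compared with its neighbours by Dixon's gap test, which by chance marks about 1 in 20 groups. Of 160 groups of the 40 genes 13 were marked, against 8 expected by chance, and they are given as values.

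WT of Dp3Tyb replicate 5 stood apart from its group in 4 genes: it was high for Eif2ak2 at 1033 (others 589 to 627) and for Ifi35 at 70.5, and low for Bst2 at 26.4 (others 89.8 to 124) and for Ifi27 at 52.8. Its mitochondrial share of 19.5% also stood apart, as did the share of Dp3Tyb replicate 5 at 15.5%, which was high for Eif2ak2 at 915 and shallower than its group at 12.5 M reads. WT of Ts1Rhr replicate 4 was low for Isg15 at 1.91, for Gbp7 at 42.1 and for Isg20, listed at 0. Dp3Tyb replicate 1 was low for Ifitm3 at 111 (others 159 to 181) and for Oas3 at 1.70. Ts1Rhr replicate 1 was listed at 0 for Isg20, Ts1Rhr replicate 4 was low for Stat2 at 269 (others 310 to 323), and WT of Dp3Tyb replicate 1 was high for Cmpk2 at 61.4 (others 35.1 to 41.1). The cause of these values was not tested.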

How the results depend on the processing

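No listed gene was called in either strain under any alternative run, and the counts of genes above WT and their medians kept their direction throughout. Genes called among all genes, 8 in Dp3Tyb and 4 in Ts1Rhr, became 34 and 25 by DESeq2. They became 30 in Dp3Tyb and 0 in Ts1Rhr without libraries above 10% mitochondrial reads. For Ts1Rhr that fit held only WT replicates 3 and 5 and Ts1Rhr replicates 3 to 5. The genes called became 4 in Dp3Tyb without a filter on low values, and 2 to 13 in Dp3Tyb and 1 to 6 in Ts1Rhr with 1 heart left out. For the difference between strains, 2 became 0 without the filter and 0 to 3 with 1 heart left out. Named genes whose sign turned are as follows, with the range for 1 heart left out. Ifit3 in Dp3Tyb was 0.098 by DESeq2 and 0.10 by edgeR (-0.35 to 0.20). Sp100 in Ts1Rhr was 0.10 by DESeq2, 0.12 by edgeR and 0.19 without libraries above 10% (-0.31 to 0.33). Without those libraries Eif2ak2 was 0.0048 in Dp3Tyb (-0.15 to 0.12) and 0.029 in Ts1Rhr. Ifi44 in Dp3Tyb ranged from -0.036 to 0.53 and Bst2 in Dp3Tyb from -0.15 to 0.56. The cause was not tested. No paired analysis was made, because the labels give no replicate numbers, litters or pairs. The numbers used here follow the order of the samples and only name a heart. Depth limits the genes near 10 normalised counts.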
